A study of Mus musculus with 9 samples.

Results

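Mast cells carry receptors for IgE and for IgG on their surface, and 7 genes encode the chains considered here: Fcer1a, Ms4a2, Fcer1g, Fcgr2b, Fcgr3, Fcgr1 and Fcgr4. They were chosen by name as rows of a table of 23951 gene symbols, and all 7 were found in it. The cells were wild-type C57BL/6 mouse mast cells grown from bone marrow for 4 to 6 weeks with the cytokines IL-3 and SCF (stem cell factor), each at 10 ng/ml, of which more than 95% were positive for the high-affinity IgE receptor and for CD117 (the Kit receptor). There were 3 groups of 3 libraries. The untreated group received neither IgE nor antigen. The IgE group was kept for 18 h with 0.5 µg/ml DNP-specific IgE (DNP is a small hapten). The antigen group received the same IgE and then 50 ng/ml DNP-coupled bovine serum albumin for 2 h, which cross-links the IgE on its receptor. Cultured mast cells of this kind stand in for tissue mast cells but have not matured in a tissue, and no label says whether the 3 libraries of a group came from separate mice or cultures, so the spread behind every p-value is that between these libraries and may be technical.

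The high-affinity IgE receptor, FcεRI, is an assembly of 1 alpha chain, 1 beta chain and a pair of gamma chains. Fcer1a encodes the alpha chain, which binds IgE; Ms4a2 encodes the beta chain, which spans the membrane several times and amplifies the signal; and Fcer1g encodes the gamma chain, which carries the ITAM, the tyrosine motif that recruits the kinase Syk. The gamma chain is shared: the activating IgG receptors FcγRI (Fcgr1), FcγRIII (Fcgr3) and FcγRIV (Fcgr4) also need it to reach the surface and to signal. FcγRIIB (Fcgr2b) stands against them. It has its own inhibitory tyrosine motif (ITIM), recruits the lipid phosphatase SHIP-1, and dampens FcεRI when both are brought together.

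Levels are given as the FPKM that the authors deposited, a unit scaled to transcript length and to sequencing depth. Because FPKM is per length, levels of different genes can be set side by side, within the limits of the transcript lengths behind the values, which no source used here gives. From the steps of the low values, depth was estimated at 20.8 to 28.7 M reads in the antigen libraries, 29.9 to 33.5 M in the untreated and 32.5 to 39.8 M in the IgE libraries (M, 1e6). The third IgE library stood apart: the SD of its log2 differences from the rest of its group was 0.176, against 0.105 to 0.129 for the other 8. Antigen replicate 3 listed at 0 all 415 genes of chromosomes X and Y with a value in each of the other 8; the 7 receptor genes lie on chromosomes 1, 3 and 19. As markers of the labelled cell type, Kit had 395 to 497 FPKM and Tpsb2, a tryptase, 6023 to 7531 FPKM over the 9 libraries, while Cpa3 and Cma1, which encode mast cell carboxypeptidase and chymase, were listed at 0 in all of them. Whether these zeros are true levels or gaps in the quantification was not tested. In bulk RNA, fewer cells of a type and less RNA per cell cannot be told apart.

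The 7 genes covered almost the whole range of expression in these cells. In untreated cells Fcer1a stood first, at 5652 ± 281 FPKM (SD, n = 3, as are all errors after ±), and ranked 4th to 5th of all genes in the table. Ms4a2 followed at 1190.1 ± 17.8 FPKM and Fcer1g at 705 ± 4.65 FPKM. Fcgr3, at 130.2 ± 1.87 FPKM, and Fcgr2b, at 88.6 ± 3.28 FPKM, were the IgG receptors with substantial levels. Fcgr1 had 0.608 ± 0.0874 FPKM and Fcgr4 0.0788 ± 0.0221 FPKM. No neighbours in this order overlapped in their ranges over the libraries of any group. The order was the same in the IgE group. In the antigen group Ms4a2 and Fcer1g had changed places: Fcer1g, at 783 to 798 FPKM, stood above Ms4a2, at 612 to 633 FPKM.

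**Figure D1:**
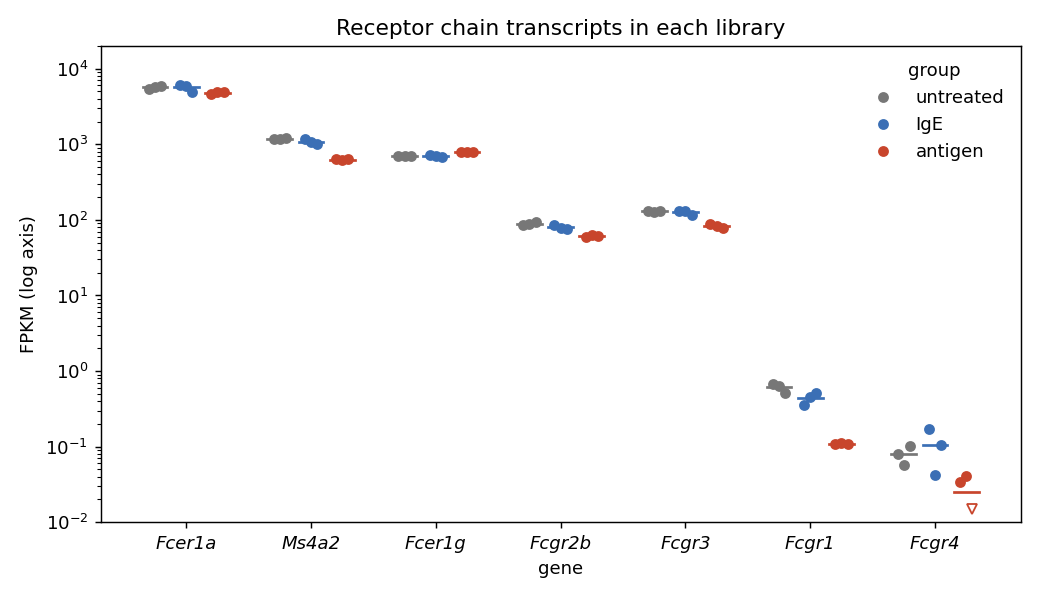
Level of each receptor gene in each of the 9 libraries, in FPKM on a log axis; points are libraries, bars are group means, and the open triangle marks the antigen library in which Fcgr4 is at 0. Fcer1a stands at 4660.2 to 6093 FPKM and Fcgr4 at 0 to 0.170 FPKM, and in the antigen group Ms4a2 lies below Fcer1g.

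With antigen, Ms4a2 fell by 0.78 on the log2 scale against IgE alone. Fcer1a did not pass the test in the values as deposited, but was lower and passed under 5 of 20 alternatives. Among these were median centring, trimmed mean scaling and quantile normalization. Fcer1g rose by 0.16 in the values as deposited, but after quantile normalization it was at -0.03 and all 3 chains of FcεRI were below 0. All changes in log2 are on the log2(FPKM + 1) scale and were tested with limma, with Benjamini-Hochberg adjusted p-values over 10890 genes and a threshold of 0.05.

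Ms4a2, the beta chain, had 1174, 1188 and 1209 FPKM in the untreated libraries, 1159, 1080.0 and 1002 FPKM in the IgE libraries and 633, 612 and 632 FPKM in the antigen libraries. The antigen libraries were all below the other 6, and the IgE libraries were all below the untreated ones. Against IgE alone, antigen lowered the mean by 42.1% (log2 -0.78, SE 0.0556, limma adjusted p = 3.62e-06). This call held under all 20 alternatives tried, with log2 values from -1.08 to -0.73. In this comparison 8.26% of the 10890 tested genes had a more negative change. Against untreated cells the antigen group was 47.4% lower (log2 -0.93, SE 0.0556, limma adjusted p = 1.22e-06). IgE alone set the mean 9.23% below untreated, which did not pass the test (log2 -0.14, 95% interval -0.27 to -0.0141, limma adjusted p = 0.0939), although it did after quantile normalization and without IgE replicate 1 (limma adjusted p = 0.0401 and 0.0344, with 0.0344 to 0.212 over the alternatives).

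Fcer1a, the alpha chain, had 5328, 5808 and 5821 FPKM in untreated, 6093, 5891 and 4931 FPKM in IgE and 4660.2, 4877 and 4909 FPKM in antigen libraries. The third IgE library, the one that lay apart from its group, was the lowest of the 6 libraries without antigen. IgE and untreated libraries overlapped, with a log2 difference of -0.01 and a 95% interval of -0.23 to 0.21. Antigen was 14.6% below IgE without passing the test (log2 -0.22, 95% interval -0.44 to -0.01, limma adjusted p = 0.0632), and the groups did not overlap. Without IgE replicate 3 the difference was -0.32 and passed (limma adjusted p = 0.00454, with 0.00318 to 0.307 over the alternatives). It passed under 5 of 20 alternatives, among them median centring, trimmed mean scaling and quantile normalization. Against untreated cells, antigen was 14.8% lower (log2 -0.23, limma adjusted p = 0.0552). That difference passed without IgE replicate 3, a library that otherwise enters only the shared spread (limma adjusted p = 0.0111, with 0.000801 to 0.286 over the alternatives). It passed under 6 of 20 alternatives, the same scalings among them.

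Fcer1g, the shared gamma chain, had 707, 708 and 699.8 FPKM in untreated, 729, 708 and 687 FPKM in IgE and 791, 783 and 798 FPKM in antigen libraries. The 3 antigen libraries were above the other 6, which overlapped with each other. Antigen raised Fcer1g by 11.8% over IgE (log2 0.16, SE 0.0362, limma adjusted p = 0.00389) and by 12.2% over untreated cells (log2 0.17, SE 0.0362, limma adjusted p = 0.00324), but after quantile normalization both directions flipped, to log2 -0.03 (limma adjusted p = 0.676) and -0.18 (limma adjusted p = 0.0128). Over all alternatives the limma adjusted p ranged from 0.00246 to 0.676 against IgE and from 0.00109 to 0.0249 against untreated cells. Under median centring and trimmed mean scaling the rise against IgE was 0.14 and 0.15 on the log2 scale and passed the test. IgE alone gave a log2 difference of 0.00 (95% interval -0.08 to 0.09).

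**Figure D2:**
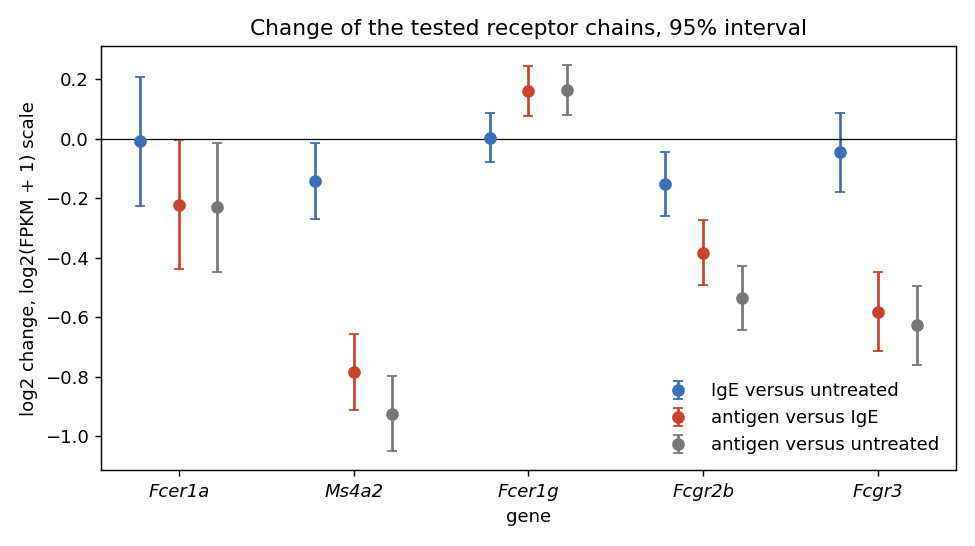
Log2 change of the 5 receptor chains that passed the filter on low values, on the log2(FPKM + 1) scale, for each of the 3 comparisons; points are limma estimates and bars 95% intervals, unadjusted for the number of genes. Ms4a2 lies at -0.78 for antigen versus IgE, Fcer1g lies above 0 in both antigen comparisons as deposited (below 0 after quantile normalization), and all 5 lie nearer 0 for IgE versus untreated.

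A ratio within a library is not changed by multiplying all its values by 1 factor (quantile normalization does change it), and the 3 ratios below were compared in 3 comparisons each with an exact two-sided permutation test, in which 3 libraries against 3 cannot give a p below 0.1. Ms4a2 per Fcer1a was 0.220, 0.204 and 0.208 in untreated, 0.190, 0.183 and 0.203 in IgE and 0.136, 0.126 and 0.129 in antigen libraries. The 3 groups were fully separated. The log2 ratio was 0.56 lower with antigen than with IgE, at the smallest possible value of p (exact permutation p = 0.1), so that the beta chain lost relative to the alpha chain in all 3 antigen libraries. Fcer1g per Fcer1a was 0.1328, 0.1219 and 0.1202 in untreated, 0.1196, 0.1201 and 0.1392 in IgE and 0.170, 0.161 and 0.163 in antigen libraries. Every antigen library was above the other 6, with a log2 difference of 0.38 from IgE (exact permutation p = 0.1), while untreated and IgE libraries overlapped. As a transcript ratio, alpha exceeded beta 4.54 to 4.89 times in untreated and 7.36 to 7.97 times in antigen libraries.

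The upstream sequences of the 3 FcεRI chain genes are shown because Ms4a2 and Fcer1a are the chain genes known for expression in mast cells and basophils, whereas Fcer1g is used in many blood cells. They are the 250 bases before the RefSeq start, from build GRCm38.p6 (the deposited values were made on mm9), with matches to 3 motifs in capitals: GATA (the word AGATAA, the word AGATAG, the word TGATAA or the word TGATAG), a PU.1 core (GAGGAA) and a MITF E-box (the word CACGTG or the word CACATG), each on both strands.
Fcer1a, chr1:173227230-173227479, minus strand: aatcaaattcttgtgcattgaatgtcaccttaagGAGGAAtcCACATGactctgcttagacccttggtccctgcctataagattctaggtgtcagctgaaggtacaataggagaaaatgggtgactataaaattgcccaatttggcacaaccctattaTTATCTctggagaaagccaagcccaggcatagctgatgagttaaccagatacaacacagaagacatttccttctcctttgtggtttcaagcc
Ms4a2, chr19:11623720-11623969, minus strand: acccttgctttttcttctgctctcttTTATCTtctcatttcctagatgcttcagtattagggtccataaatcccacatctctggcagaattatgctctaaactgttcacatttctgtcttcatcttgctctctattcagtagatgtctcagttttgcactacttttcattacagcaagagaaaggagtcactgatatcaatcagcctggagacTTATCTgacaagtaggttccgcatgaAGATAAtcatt
Fcer1g, chr1:171234350-171234599, minus strand: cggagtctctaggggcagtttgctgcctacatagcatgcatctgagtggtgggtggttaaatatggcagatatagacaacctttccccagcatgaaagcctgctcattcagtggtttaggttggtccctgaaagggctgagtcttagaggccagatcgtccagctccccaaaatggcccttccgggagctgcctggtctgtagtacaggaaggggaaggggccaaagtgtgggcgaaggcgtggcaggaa
Ms4a2 held 3 GATA matches, which begin 224, 37 and 11 bases before the start. Fcer1a held 1 GATA match, at 92 bases, 1 PU.1 match, at 216 bases, and 1 MITF match, at 208 bases, and no matches overlapped. Fcer1g held none of the 3 motifs in this window. Of 27025 RefSeq promoters of this length, 27.1% held a GATA match and 1.38% held 3 or more, 23.1% held the PU.1 core and 17.6% the MITF E-box. These are letter matches only.

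Both IgG receptors with substantial levels fell with antigen. Fcgr3, the activating receptor that signals through the gamma chain, had 131, 128 and 132 FPKM in untreated, 131, 131 and 117 FPKM in IgE and 88.8, 84.2 and 79.0 FPKM in antigen libraries. The antigen libraries lay below all others, while untreated and IgE libraries overlapped. Antigen lowered the mean by 33.5% against IgE (log2 -0.58, SE 0.0576, limma adjusted p = 2.84e-05) and by 35.5% against untreated cells (log2 -0.63, limma adjusted p = 1.70e-05). Both calls held under all 20 alternatives. IgE alone did not pass the test (log2 -0.05, 95% interval -0.18 to 0.09, limma adjusted p = 0.606).

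Fcgr2b, the inhibitory receptor, had 86.5, 87.0 and 92.4 FPKM in untreated, 85.2, 77.5 and 76.6 FPKM in IgE and 59.5, 62.3 and 60.7 FPKM in antigen libraries. The 3 groups did not overlap, and the antigen libraries were lowest. With antigen the mean fell by 23.7% against IgE (log2 -0.38, SE 0.0475, limma adjusted p = 0.000117) and by 31.3% against untreated cells (log2 -0.53, SE 0.0475, limma adjusted p = 1.38e-05), and both calls held under all 20 alternatives. Fcgr2b was the only one of the 5 tested receptor genes called with IgE alone, 10.0% lower (log2 -0.15, SE 0.0475, limma adjusted p = 0.0465). That call was at the edge of the threshold and was lost under 13 of 20 alternatives, among them the removal of any library except IgE replicate 1 (limma adjusted p 0.00854 to 0.147 over the alternatives).

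With antigen against IgE, the inhibitory-to-activating ratio moved less than either gene. Fcgr2b per Fcgr3 was 0.663, 0.678 and 0.701 in untreated, 0.648, 0.592 and 0.657 in IgE and 0.670, 0.739 and 0.769 in antigen libraries. Antigen libraries were all above IgE libraries, with a log2 difference of 0.20 (exact permutation p = 0.1, the smallest possible), but they overlapped with the untreated ones (log2 difference 0.09, exact permutation p = 0.3). IgE libraries were all below untreated ones, by 0.11 on the log2 scale (exact permutation p = 0.1).

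**Figure D3:**
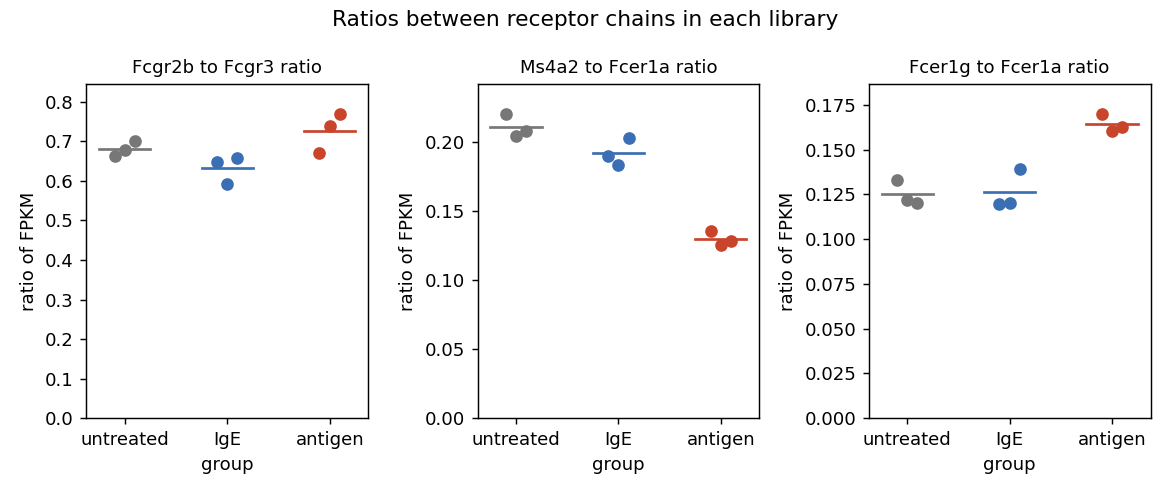
Ratio of FPKM between receptor chains within each library, by group; points are libraries, bars are group means, and each vertical axis starts at 0. Ms4a2 per Fcer1a is 0.126 to 0.136 in the antigen libraries against 0.183 to 0.220 in the others, and Fcgr2b per Fcgr3 overlaps between antigen and untreated libraries.

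Values of Fcgr2b and Fcgr3 carry an uncertainty of their own, because the genes share sequence and no source used here says how reads that fit both were handled. In GENCODE M21 transcripts, 509 aligned coding bases of the pair were 96.5% identical. Of all runs of 50 bases in the coding sequence, 17.1% of those in Fcgr2b also occurred in Fcgr3, and 22.1% of those in Fcgr3 in Fcgr2b; for runs of 100 bases the shares were 4.78% and 6.27%. No other pair among the 7 genes shared a run of 36 coding bases. The most alike stretch of 150 bases is shown for both, as coding bases 256 to 405 of Fcgr2b and 241 to 390 of Fcgr3, with the 1 base that differs in capitals.
Fcgr2b: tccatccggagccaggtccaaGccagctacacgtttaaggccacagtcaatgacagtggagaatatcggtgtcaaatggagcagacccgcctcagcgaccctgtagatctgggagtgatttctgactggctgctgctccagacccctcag
Fcgr3: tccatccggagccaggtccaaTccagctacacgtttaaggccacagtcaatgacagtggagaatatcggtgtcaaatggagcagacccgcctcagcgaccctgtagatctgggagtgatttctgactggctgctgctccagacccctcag
Reads lying wholly within the lower-case runs cannot be assigned to one gene by sequence. An antisense gene overlaps Fcgr2b in that annotation, and the use of strand is not given either.

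Fcgr1 and Fcgr4, the remaining activating IgG receptors, were far lower and did not reach 1 FPKM in any library, so they were under the filter of 1 FPKM in at least 3 libraries and outside the main test. Fcgr1, which binds monomeric IgG with high affinity on macrophages, had 0.683, 0.627 and 0.512 FPKM in untreated, 0.352, 0.452 and 0.509 FPKM in IgE and 0.108, 0.110 and 0.107 FPKM in antigen libraries. The antigen libraries were the lowest, and IgE libraries were all below untreated ones. With the depths above and its transcript of 2589 bases, this is about 57, 48 and 44 reads in untreated, 31, 46 and 43 in IgE and 7, 6 and 8 in antigen libraries. Summed over libraries and set against depth, the antigen group had 0.252 times the reads of the IgE group (95% interval 0.15 to 0.402) and 0.182 times those of the untreated group (0.109 to 0.288). The ratio of IgE to untreated was 0.722 (0.563 to 0.925). These exact Clopper-Pearson intervals cover counting error only, and reads without molecular identifiers are not independent molecules. An exact permutation test of the 3 libraries against 3 gave p = 0.1, the smallest possible, in each of the 3 comparisons. In a limma fit without the filter, antigen against IgE passed (log2 -0.37, adjusted p = 0.00033), as did antigen against untreated (log2 -0.53, adjusted p = 3.83e-05), and IgE against untreated did not (log2 -0.16, adjusted p = 0.0646).

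Fcgr4 was near the limit of detection. Its values of 0.0792, 0.0564 and 0.101 FPKM in untreated, 0.170, 0.0425 and 0.104 FPKM in IgE and 0.0339, 0.0405 and 0 FPKM in antigen libraries amount to 9, 13 and 2 reads per group. The library at 0 allows up to 0.0834 FPKM, the worth of 3 reads. Antigen against IgE had a ratio of 0.221 with a counting interval of 0.0242 to 0.977, and antigen against untreated 0.286 with 0.0301 to 1.38. Without the filter, none of the 3 comparisons passed (limma adjusted p = 0.053, 0.163 and 0.663 for antigen against IgE, antigen against untreated and IgE against untreated).

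**Figure D4:**
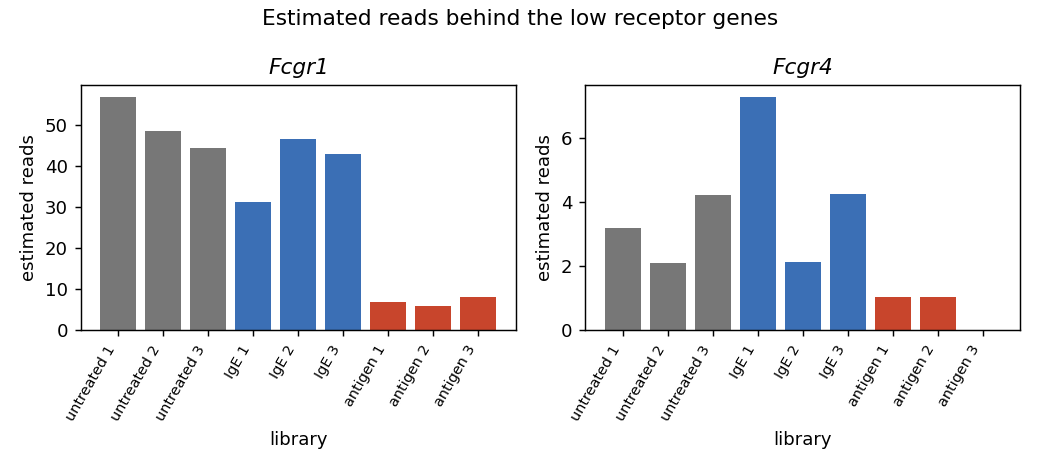
Estimated reads behind Fcgr1 and Fcgr4 in each library, as FPKM times transcript length times estimated depth; each bar is 1 library and both axes start at 0. Fcgr1 has 31 to 57 reads in the untreated and IgE libraries and 6 to 8 in the antigen libraries, and Fcgr4 has 7 or fewer in every library.

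Macrophages and monocytes carry Fcgr1, Fcgr4, Fcgr3 and Fcgr2b, so their markers were read beside these genes. Of 15 such markers in the table, 8 had a mean of at least 1 FPKM, and the 15 together summed to 173 to 182 FPKM in untreated, 148 to 163 in IgE and 99.1 to 101 in antigen libraries. That sum was lower with antigen, as were the means of these 4 genes. Ccr2 had the largest fall in FPKM among the 15 markers, and other markers fell or rose. Whether cells with these markers had a part in the change of the 4 genes was not tested. Csf1r, the receptor that defines the lineage, had 0.586 to 1.13 FPKM, Mrc1 0.102 to 0.221 FPKM, and C1qa at most 0.0287 FPKM. Ccr2, a chemokine receptor, went from 89.4 FPKM in untreated and 73.6 in IgE to 18.6 in antigen libraries, and Cd68 went the other way, from 8.62 and 16.1 to 30.2 FPKM. The rest of the 8 markers also went both ways from IgE to antigen. Means fell for Cx3cr1 (40.2 to 26.2 FPKM), Marco (12.2 to 8.82), Emr1 (9.36 to 7.75) and Ly6c2 (2.34 to 2.1). They rose for Cd14 (0.714 to 3.45 FPKM) and Cd163 (1.13 to 1.78). Basophils share FcεRI with mast cells, and their 6 markers summed to 987 to 1030.0 FPKM in untreated, 846 to 892 in IgE and at least 988 in antigen libraries. Cd200r3 and Itga2b made up most of that sum, with means of 409 and 396 FPKM over the 9 libraries. Both were higher with antigen than with IgE, as was Mcpt8 (16.9 to 19.5 FPKM). Lower with antigen were Prss34 (92.1 to 54.7 FPKM), Cd69 (55.7 to 33.2) and Itga2 (0.677 to 0.245). Whether the transcripts of these 6 genes came from basophils or from the mast cells themselves was not tested. For B cells, which use Fcgr2b as their IgG receptor, Ms4a1 and Pax5 were listed at 0 in all libraries and the 7 markers summed to at most 3.57 FPKM. The 10 neutrophil markers in the table summed to at most 5.44 FPKM.

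Counted against the background of each comparison, the calls among receptor genes were as follows. For antigen versus IgE, 3 of the 5 tested genes were called lower and 1 higher, where 34.9% of the tested genes were called lower and 36.2% higher. Antigen versus untreated, which shares its antigen libraries with that comparison, also gave 3 lower and 1 higher, against 34.4% and 37.2%. In IgE versus untreated, 1 was called lower and 0 higher, against 13.1% and 14.5%. In either direction 71.1% of tested genes were called for antigen versus IgE, 71.7% for antigen versus untreated and 27.5% for IgE versus untreated. For antigen versus IgE, 4 of the 5 tested receptor genes lay wholly lower and 1 wholly higher, against 37% and 37.1% of tested genes. For antigen versus untreated these were again 4 and 1, against 38% and 40.2%, and for IgE versus untreated 2 lay wholly lower and 0 higher, against 21.8% and 21.3%. The sizes were moderate for antigen: the median absolute log2 change over all tested genes was 0.34 for antigen versus IgE, which Ms4a2, Fcgr3 and Fcgr2b exceeded and Fcer1a and Fcer1g did not. In IgE versus untreated that median was 0.12, which only Ms4a2 and Fcgr2b of the 5 exceeded.

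Genes related to these receptors were counted in 6 lists. Of other Fc receptors, 3 of the 12 in the table passed the filter. Fcrla and Fcrlb reached 1 FPKM on average only in the groups without antigen, so the filter favoured a fall and no count is read from this list. Trim21, the cytosolic antibody receptor, fell from 13.5 ± 0.600 to 7.94 ± 0.223 FPKM, and Fcrlb, an Fc receptor-like protein, from 1.035 ± 0.137 to 0.438 ± 0.176 FPKM. Of the Ms4a family, 2 of 14 passed the filter apart from Ms4a2, and 1 of them, Ms4a3, fell from 3.28 ± 0.606 to 1.58 ± 0.217 FPKM.

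Among ITAM adaptors and other receptors that pair with the gamma chain, 10 of 20 were tested. With antigen against IgE, 4 were called higher and 1 lower (median 0.13), where 36.2% of all tested genes were called higher and 34.9% lower. Cd79b, the gene called lower, reached 1 FPKM on average only in the groups without antigen, so the filter favoured its fall. The C-type lectin receptor genes Clec4e, from 1.85 ± 0.241 to 5.38 ± 0.0918 FPKM, and Clec4n, from 3.13 ± 0.291 to 7.95 ± 0.205 FPKM, rose; their receptors (Mincle and Dectin-2) signal through the gamma chain. Clec4e also rose with IgE alone, from 1.28 ± 0.142 FPKM. It was the 1 gene of this list called in that comparison, where 14.5% of all tested genes were called higher and 13.1% lower.

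For the counts that follow, 36.2% of all tested genes were called higher and 34.9% lower for antigen versus IgE, and 14.5% and 13.1% for IgE alone. Downstream of the activating chains, 11 of 24 tested signalling genes were called higher and 7 lower with antigen against IgE (median 0.04), and with IgE alone 1 was higher and 10 lower (median -0.10 where that of all genes was -0.01). Lat, the membrane adaptor, rose 2.36-fold to 383 ± 12.3 FPKM and Tec, a kinase, 2.66-fold to 47.9 ± 0.822 FPKM. Prkcb, a protein kinase C, was the gene higher with IgE alone (1.19-fold), and Src fell there from 6.80 ± 0.367 to 4.71 ± 0.554 FPKM. Kinases that act directly on the chains were looked up after the values were seen. Lyn, which binds the beta chain, went from 62.8 ± 2.62 with IgE to 121 ± 1.18 FPKM with antigen (limma adjusted p = 1.17e-07), and Syk, which binds the gamma chain, from 40.03 ± 1.43 to 37.9 ± 0.743 FPKM (limma adjusted p = 0.0789).

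Among phosphatases, adaptors and ubiquitin ligases listed as inhibitory partners, 11 of 17 were called higher and 4 lower with antigen against IgE. Their median log2 change was 0.29. The 11 include Ptprc (log2 0.41) and Ptpn11 (0.35), and whether each listed gene restrains these receptors was not tested. Ubash3b, a phosphatase that acts on Syk, rose 1.57-fold to 151 ± 1.57 FPKM, and Pag1, an adaptor for the inhibitory kinase Csk, fell from 12.1 ± 1.13 to 3.70 ± 0.371 FPKM. Inpp5d, which encodes SHIP-1, the partner of FcγRIIB, was looked up after its values were seen and went from 223 ± 19.3 to 252 ± 4.50 FPKM (limma adjusted p = 0.0216). With IgE alone 1 gene was higher and 5 were lower, of which Ptpn22 and Inpp4b had the smallest adjusted p (log2 -0.33 and -0.22, limma adjusted p = 0.00287 and 0.00365). With the X and Y zeros of antigen replicate 3 treated as missing, 6 were lower. The added gene was the X-linked Sh3kbp1 (log2 -0.14, limma adjusted p = 0.0419).

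Transcription factors linked to the receptor chain genes in mast cells were called higher in 12 and lower in 6 of 22 with antigen against IgE (median 0.16). Ets1 rose 3.59-fold to 25.8 ± 1.01 FPKM and Stat5a 2.29-fold to 74.6 ± 0.903 FPKM. The factors of the motifs above were looked up after their values were seen. Gata1 is X-linked and was listed at 0 in antigen replicate 3; with that value treated as missing it fell by 0.34 on the log2 scale (limma adjusted p = 3.09e-05), which makes 7 falls in the list, and as deposited it did not pass (limma adjusted p = 0.165). Gata2 had 196 ± 58.2 FPKM with IgE and 196 ± 2.92 with antigen (limma adjusted p = 0.84), Spi1 (PU.1) rose from 56.8 ± 6.64 to 112 ± 0.992 FPKM (limma adjusted p = 5.49e-06), and Mitf had 65.0 ± 1.85 and 60.8 ± 2.72 FPKM (limma adjusted p = 0.0653).

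**Figure D5:**
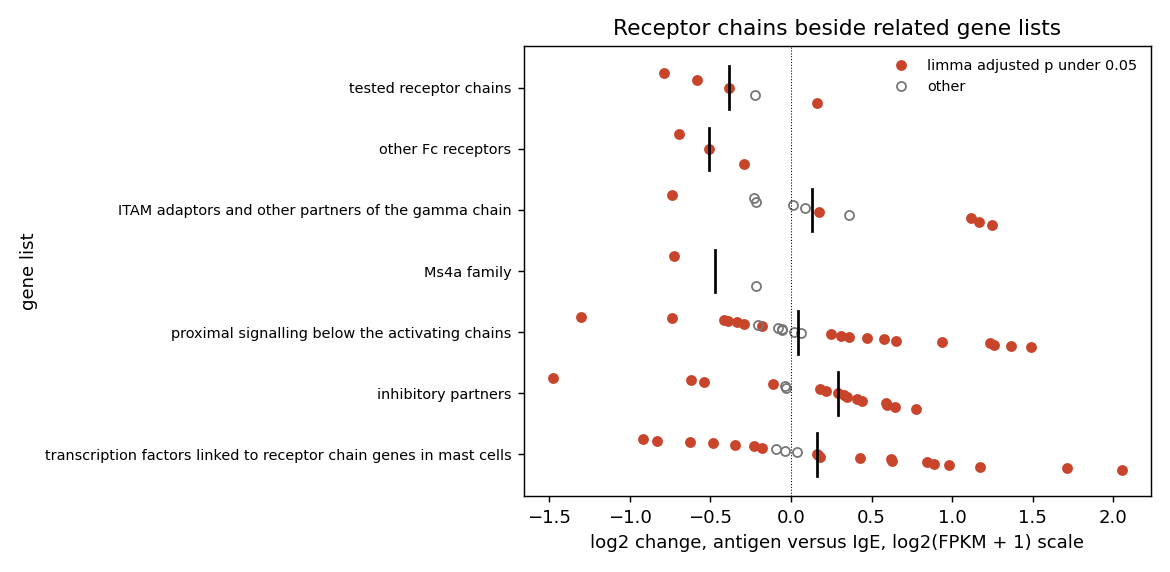
Log2 change of antigen versus IgE for the 5 tested receptor chains and for the tested genes of the 6 related lists, on the log2(FPKM + 1) scale, with the X and Y zeros of antigen replicate 3 treated as missing; each point is a gene, filled where the limma adjusted p is under 0.05, and black bars are list medians. The other Fc receptors are few and were selected in part by the filter on low values, and the inhibitory partners have a median of 0.29.

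As a description, the genes whose log2 levels followed each receptor gene most closely over the 9 libraries were named by Pearson's r. All points of one group share a treatment, so r mainly follows the antigen step. For Fcer1a it also follows the spread within the IgE group, where Fcer1a had 4931 to 6093 FPKM. Its nearest gene, Rras2, had an SD of 0.317 FPKM in IgE and 0.053 in antigen libraries. For Ms4a2 these were Exoc3, of the exocyst (r = 0.9986), Cpne3 (0.9978) and Cd55, a complement regulator (0.9978), and 1232 genes had r above 0.95. Cd55 stood at 369 ± 11.2, 328 ± 20.3 and 184 ± 2.34 FPKM in untreated, IgE and antigen libraries. Fcgr3 was followed by Alg1 (0.9968), Cyp4f17 (0.9954) and Bpgm (0.9954), and Fcgr2b by Cep83os (0.9937), Wdpcp (0.9912) and Naip5 (0.991). Fcer1g was nearest to Golm1 (0.9922) and Gpr171 (0.9919). Fcer1a had fewer close followers, with 10 genes above 0.95, led by Rras2 (0.9885), Slc33a1 (0.9739) and Zfp110 (0.9686). Between receptor genes, r was 0.98 for Ms4a2 with Fcgr2b and 0.98 with Fcgr3, and -0.92 for Ms4a2 with Fcer1g, over the same 9 libraries.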

How the data were processed

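RNA of 9 libraries, 3 in each of 3 groups, was sequenced. The authors deposited 1 table of FPKM values; per the submitters' processing notes, TopHat2 2.0.12, Bowtie 0.12.7 and the mm9 build were used. No source used here gives the FPKM program, the annotation or whether strand was used. Columns were matched to samples by name. The 10890 genes that reached 1 FPKM in 3 or more of the 9 libraries were tested with limma 3.58.1 (R 4.3.3) on log2(FPKM + 1), with an intensity trend, no covariate and 1 shared spread, two-sided, with Benjamini-Hochberg adjustment. The fit was tested on simulated data in which few genes changed. Over the 3 comparisons, a log2 change of 0.25 was called in 22.4% to 32.8% of the genes given it. A log2 change of 1 was called in 97.0% to 100.0%.

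Depth was estimated from 2966 genes with 1 GENCODE M21 transcript over 1000 bases, as the depth that best makes their low values whole reads (59.5% to 75.3% within 0.15 of a whole number, where an even spread gives 30%). All 7 genes are named with every value; for each list up to 2 called genes per comparison with the smallest adjusted p were eligible, or the 2 highest where none was called, and for each receptor gene the 3 nearest by r, of which 1 is not reported here. The genes and lists were chosen with earlier results of these data known. Promoters of all 7 genes matched by symbol in the RefSeq table. Alternatives covered pseudocount, filter, scaling, prior, libraries in the fit, a replicate block and each library left out; the setting with X and Y zeros as missing was chosen after seeing the data.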

Additional observations from a re-analysis of the deposited data

How the results depend on the processing

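Of 306 changes of receptor genes under alternatives, 268 kept direction and side of the threshold. In IgE versus untreated, Fcgr2b lost its call without the filter (log2 -0.15, limma adjusted p = 0.0642), with median centring (-0.15, 0.0512), without the trend (-0.15, 0.0561), with only the 2 groups compared (-0.15, 0.0786) and with the replicate block (-0.15, 0.0954), leaving 0 receptor genes called lower in each. After quantile normalization 2 were called lower, as Ms4a2 passed (-0.18, 0.0401), and Fcer1g was at -0.15 (0.0597), while trimmed mean scaling set Fcer1g at -0.00795 (0.902). Leaving out 1 library gave 0 to 2 receptor genes called lower and 1015 to 1942 genes called higher and 880 to 1945 lower in all, the lowest counts without untreated replicate 1 and without untreated replicate 3. Log2 values then ranged from -0.0673 to 0.0853 for Fcer1a, -0.0167 to 0.0262 for Fcer1g, -0.0752 to 0.0108 for Fcgr3, -0.199 to -0.122 for Fcgr2b and -0.194 to -0.0890 for Ms4a2, and from -0.0591 to 0.0574 for the log2 ratio of Fcer1g to Fcer1a.

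For antigen versus IgE, Fcer1a passed with median centring (log2 -0.24, limma adjusted p = 0.048), trimmed mean scaling (-0.23, 0.0469), quantile normalization (-0.44, 0.00318) and without the trend (-0.22, 0.035), and ranged from -0.32 to -0.16 with 1 library left out. For antigen versus untreated it passed with median centring (-0.25, 0.0409), trimmed mean scaling (-0.25, 0.0334), quantile normalization (-0.56, 0.000801), no trend (-0.23, 0.03) and only the 2 groups compared (-0.23, 0.0195), and ranged from -0.272 to -0.207 with 1 library left out. Quantile normalization also left 0 receptor genes called higher in both antigen comparisons, with Fcer1g at -0.0253 (0.676) and -0.18 (0.0128), and 5 called lower in antigen versus untreated. Without the filter Fcgr1 passed for antigen versus IgE (-0.37, 0.00033) and versus untreated (-0.53, 3.83e-05). The causes were not tested.

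Replicate numbers gave no clear pairing of the libraries, though these values cannot exclude one. Correlations of same-numbered deviations were 0.115, 0.350 and 0.0361 for IgE with untreated, and 3 of 6 libraries correlated best with their own number. That held for 0 of 6 for antigen with IgE and 2 of 6 for antigen with untreated. With the replicate block 1365 genes were called higher and 1135 lower in IgE versus untreated, against 1575 and 1424 without it. For Fcgr1 in the antigen libraries the counting error alone is a CV of 35.4% to 41.1%, above the 1.41% seen between these libraries, so that agreement is no measure of precision.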

Other observations

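The genes with the largest proportional differences between antigen and IgE libraries were those under the filter. Mean FPKM with IgE was 4.03 times that with antigen for Fcgr1 and 4.26 times for Fcgr4 (2 reads against 13, with a counting interval of 0.0242 to 0.977 for the antigen-to-IgE ratio), and 1.73 times for Ms4a2. On the log2(FPKM + 1) scale the same differences were -0.37, -0.11 and -0.78, because the added 1 exceeds every value of Fcgr1 and Fcgr4.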
